A study of Mus musculus with 6 samples.

Results

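The genes that lie within 1 Mb of Selenbp1 were examined in ovaries with and without this gene. They were chosen by position alone, as all names read by an array probe on chromosome 3 between 93748621 and 95748680 of mouse build mm9. This gave 88 of the 31693 names on the array, read by 110 of its 39429 probes. The probe for Selenbp1 itself sits in the middle, with 36 probes before it and 73 after it. The series measured RNA from whole ovaries of female C57BL/6J mice aged 20 weeks, in 3 SeBP1 knockout and 3 wild-type samples, SeBP1 being the name that the labels give to the product of Selenbp1. Each sample was labelled with the dye Cy3 and hybridised to its own single-colour Agilent array. The labels do not give how the allele was made, nor whether each array is a separate animal, so the p-values cover only the spread from sample to sample.

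Selenbp1 encodes selenium-binding protein 1, a cytosolic enzyme that oxidises methanethiol, a sulfur compound made by gut bacteria and by cells. Its close relative Selenbp2, first described in mouse liver as an acetaminophen-binding protein, lies nearby on the same chromosome. A gene-targeted allele can carry an inserted cassette and linked chromosome segments from the cells in which it was made. The genes that flank a targeted locus are therefore compared between genotypes to learn whether expression differs beyond the deleted gene. Around Selenbp1 these are genes of unrelated functions, among them proteasome subunits, lipid kinases, chromatin regulators, cathepsins and the survival factor Mcl1.

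In the RefSeq table of assembly GRCm38, used for names and order only, 58 protein-coding genes run from Them4 to Anp32e, which are near the ends of the window. A probe of the window carried the name of 56 of them, and 50 were tested. The exceptions with no probe under their name were Selenbp2 and the predicted gene LOC115489748. Selenbp2 stands 4 protein-coding genes before Selenbp1, between Tuft1 and Cgn. The probe for LOC100045064, a predicted transcript with the description of a Selenbp2 relative, also lay between the probes of Tuft1 and Cgn.

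The probes are designed oligonucleotides of 60 bases, and their sequences decide which transcripts they can report on. Those of the targeted gene, of LOC100045064, and of the closest measured neighbour on either side are given first. Next come Tmod4, which had an unadjusted limma p under 0.05, and C2cd4d and Gm4363, the neighbours with the lowest and highest difference. The probes of the last 4 share bases with probes of other names. All are written 5′ to 3′ as in the files. Capitals mark a run of alternating A and C in LOC100045064 and, in the last 4, the longest run shared on the same strand with another probe of the array.
Selenbp1: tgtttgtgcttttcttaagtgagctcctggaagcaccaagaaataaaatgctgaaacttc
LOC100045064: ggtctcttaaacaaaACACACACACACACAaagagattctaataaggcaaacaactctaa
Psmb4: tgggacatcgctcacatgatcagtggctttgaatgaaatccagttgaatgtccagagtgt
B230398E01Rik: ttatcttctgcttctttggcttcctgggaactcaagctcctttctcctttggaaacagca
Tmod4: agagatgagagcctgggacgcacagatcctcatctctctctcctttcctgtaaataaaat
C2cd4d: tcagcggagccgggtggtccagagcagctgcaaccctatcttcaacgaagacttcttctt
Gm4363: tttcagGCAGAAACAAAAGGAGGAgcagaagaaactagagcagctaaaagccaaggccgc
LOC676017: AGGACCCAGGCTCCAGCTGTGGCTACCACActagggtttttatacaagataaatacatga
ENSMUST00000036360: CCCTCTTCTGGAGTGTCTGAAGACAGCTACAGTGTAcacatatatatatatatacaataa
Mrps21: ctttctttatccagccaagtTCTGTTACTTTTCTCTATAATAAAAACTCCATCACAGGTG

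The Selenbp1 probe maps to chr3:94748621-94748680 on the plus strand. No other probe of the array shared 16 bases or more with it on either strand. The files nevertheless assign it to a transcript of Selenbp2 as well as to one of Selenbp1, so its signal can come from both genes. The LOC100045064 probe maps to chr3:94506773-94506832, also on the plus strand. Its run of 15 bases, ACACACACACACACA, is held on either strand by 114 of 39429 probes, or 0.289%. Runs of 16 bases or more were shared with 11 other probes on the same strand, the longest being 18 bases shared with Snap25 on chromosome 2, and with 26 probes on the opposite strand.

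Of the 110 probes, 90 shared no run of 16 bases or more on the same strand with another probe of the array, and 10 shared a run of 20 or more. The probe of Mrps21, a mitochondrial ribosomal protein, overlaps its neighbour ENSMUST00000067298 by 40 bases at the same place. The probe of LOC676017, a predicted transcript similar to ribosomal protein S2, shares 30 bases with the probe of Gm12109 on chromosome 11. The probe of ENSMUST00000036360 shares 16 bases or more with 12 other probes on the same strand, the longest run being 36 bases shared with Pbld1 on chromosome 10, and on the opposite strand it shares 37 bases with Nanog on chromosome 6. The probe of Gm4363, a predicted gene, shares 18 bases with a probe of the name LOC100048713 on chromosome 17. Signals of these probes may come from several transcripts.

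The values below are log2 processed intensity minus the 75th percentile of each array, and a difference is the knockout mean minus the wild-type mean on that scale. A probe was tested where either genotype had it well above background on each of its 3 arrays. That held for 85 probes of the window, which are Selenbp1 and 84 neighbouring probes with 68 names. Of the 85, 80 were well above background on all 6 arrays and 5, those of C2cd4d, Tdrkh, Gm9124, ENSMUST00000036360 and a probe of Bnipl, passed only through the knockout arrays. Over the whole array, 24415 probes were tested together with limma. Arrays agreed closely across probes, with Pearson's r between 0.977 and 0.991 for a knockout and a wild type. The 75th percentile of the intensity lay between 1493 and 1659 in the knockouts and between 1309 and 1759 in the wild types. Markers of granulosa cells and of oocytes, 6 and 8 genes, were well above background on all arrays, as were 4 of 5 theca markers, the remaining one having no probe under its name. Wild type replicates 1 and 2 were hybridised on slide 1, and wild type replicate 3 shared slide 2 with the 3 knockouts. Weights that limma estimated from how each array fitted its genotype were lowest for knockout replicate 2 at 0.44 and wild type replicate 3 at 0.35, and between 0.76 and 5.30 for the other arrays. In whole ovaries, fewer cells of a type and less RNA per cell cannot be told apart.

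Selenbp1 was lower in the knockout ovaries, and it was the only probe of the window, and of the whole array, to pass the test. Its values were -0.11, 0.02 and -0.37 in the knockouts, against 2.68, 2.52 and 2.59 in the wild types. The highest knockout was far below the lowest wild type, and each genotype was tight within itself. The means were -0.15 ± 0.20 in the knockouts and 2.60 ± 0.08 in the wild types (SD, n = 3 each). The difference of -2.75 ± 0.13 (SE) is a 6.72-fold lower signal with a limma adjusted p of 0.0104. Over the whole array 0.00410% of the probes were called.

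The signal that remained in the knockouts was well above background on all 3 arrays. Which part of the gene was deleted is not given, so the probe may lie outside it. The files also assign the probe to a transcript of Selenbp2, so the remaining signal may come from that gene. The source of this signal was not tested. The size of the difference hardly depended on the arrays used, but its call did. Within slide 2, where wild type replicate 3 is the only wild type, the difference was -2.74 with a limma adjusted p of 0.347, and with slide as a block that p was 0.0792. The limma adjusted p was 0.141 without knockout replicate 1, 0.0631 without knockout replicate 3, 0.167 after wild type replicate 1 was left out and 0.144 after wild type replicate 2 was.

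The Selenbp2-like transcript LOC100045064 did not pass the test. It measured -3.31, -2.51 and -3.26 in the knockouts, against -3.41, -3.18 and -3.10 in the wild types. Knockout replicate 2 was the highest array, and the other knockouts lay among the wild types. The difference was 0.20, with a 95% interval from -0.36 to 0.77. Without knockout replicate 2 it was -0.05. The Selenbp1 probe, whose interval ran from -3.07 to -2.43, lay wholly outside that range, as the plot of differences along the locus shows.

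**Figure D1:**
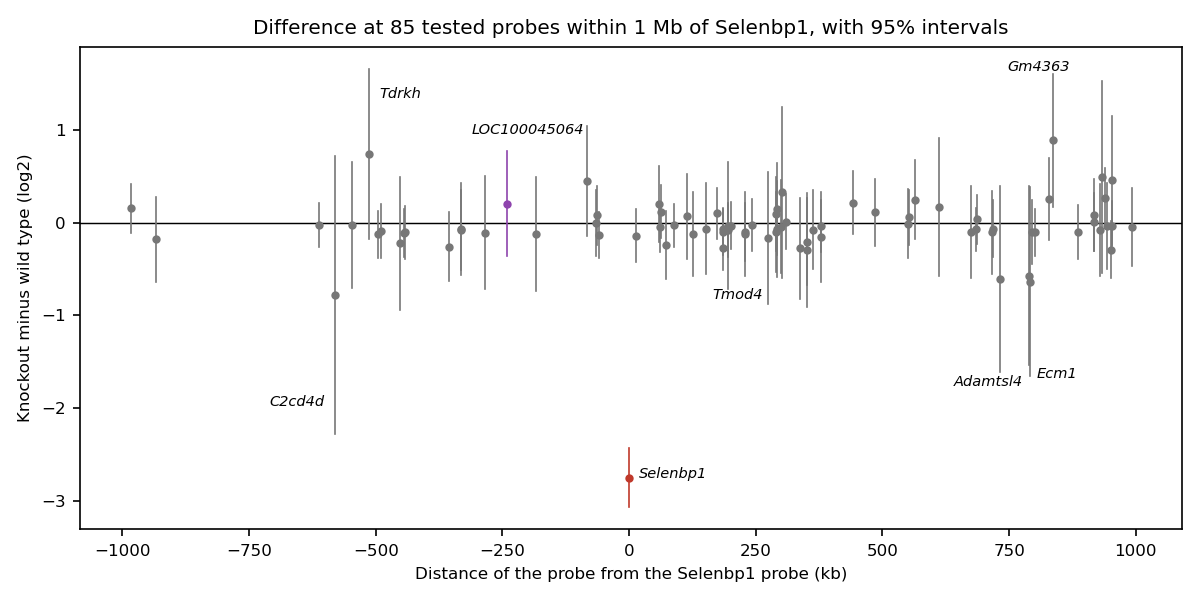
Difference between knockout and wild type (log2, vertical axis) at the 85 tested probes against their distance in kb from the Selenbp1 probe (horizontal axis); points are differences, lines 95% intervals. Selenbp1 stands alone at -2.75, and all other points lie between -0.78 and 0.89.

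No neighbour differed by as much as 2-fold, and none passed the test. Differences at the 84 neighbouring probes ran from -0.78 to 0.89, and their median absolute difference was 0.10. At 74 of them the absolute difference was under 0.3, which holds for 84.8% of all probes tested. Over the array 1.27% of the probes differed by more than 2-fold, against 0 of the 84 here. The smallest limma adjusted p among the neighbours was 0.9999. At an unadjusted p under 0.05, 2 of the 84 neighbouring probes passed, which is 2.38% against 3.95% over the array. This share exceeded that of the array under 2 of the 17 alternatives, with 5.95% against 5.0% after quantile normalization and 5.95% against 4.44% without knockout replicate 1. The knockout was higher at 1 of them and lower at the other, which is 1.19% in each direction, against 2.20% higher and 1.74% lower over the array.

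The intervals bound what could have gone unseen. At 74 of the 84 neighbouring probes, or 88.1%, the 95% interval lay within 2-fold in either direction, against 87.0% of all probes tested. Within 1.5-fold it lay at 51 of them, or 60.7%, against 60.6% of all. The distance from the difference to either end of its interval was 0.41 at the median neighbour and 0.23 at the narrowest. At the neighbours whose interval reached beyond 1.5-fold, a change of that size was therefore not excluded. The adjusted test needed far larger changes. Even Selenbp1, with a difference of -2.75 and an SE of 0.13, reached a limma adjusted p of only 0.0104. The median SE of the neighbours was 0.17, so a change of more than 2-fold could have gone uncalled at many of them. That no neighbour passed the adjusted test sets no limit on their changes, which only the intervals do. The 10 probes whose intervals reached beyond 2-fold belonged to C2cd4d, Tdrkh, Bnipl, Adamtsl4, Ecm1 with 2 probes, Gm4363, Ciart, Car14 and the cDNA TC1612650.

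No difference was called at the genes closest to Selenbp1. The first tested gene before it was Psmb4, a beta subunit of the proteasome core, 60.3 kb away by probe distance. Its probe spans 94688326 to 94688615 on the minus strand. Psmb4 measured 5.29, 5.31 and 5.25 in the knockouts, against 5.30, 5.49 and 5.47 in the wild types. The knockouts lay close together, and 1 wild type lay among them. The difference was -0.13, with a 95% interval from -0.38 to 0.11.

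Pogz, a zinc finger protein that binds heterochromatin protein, was measured by a pair of probes about 64 kb before Selenbp1. The brighter one had -0.80, -0.58 and -0.73 in the knockouts, against -0.68, -0.68 and -0.99 in the wild types. The genotypes overlapped, with wild type replicate 3 lowest of all. The difference was 0.08 at this probe and 0.00 at the other. TC1612650, a cDNA that the files match in part to Pogz, was dim and higher on average in the knockouts, at -5.25, -4.28 and -4.70 against -5.12, -5.13 and -5.34 in the wild types. Knockout replicate 1 lay among the wild types there, and the difference of 0.45 had a 95% interval from -0.14 to 1.05. Cgn, which encodes the tight junction protein cingulin, was next at 184.6 kb, with -0.01, 0.81 and 0.41 in the knockouts, against 0.80, 0.58 and 0.18 in the wild types. Its arrays were spread widely in both genotypes, and the difference of -0.12 was smaller than its SE of 0.25.

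After Selenbp1, the closest tested probe was that of the cDNA B230398E01Rik, 14.4 kb away at chr3:94763053-94763112 on the minus strand. It measured -2.61, -2.35 and -2.45 in the knockouts, against -2.42, -2.37 and -2.21 in the wild types. The groups overlapped, and the difference was -0.14 with an SE of 0.12. The cDNA AK080218 followed, with a difference of 0.20 and an SE of 0.17. Pi4kb, a lipid kinase of the Golgi, measured -2.18, -2.23 and -1.98 in the knockouts, against -2.01, -2.14 and -2.10 in the wild types. The knockouts enclosed all wild types, and the difference was -0.05 with an SE of 0.11. Zfp687, a zinc finger protein, had a difference of 0.12 with an SE of 0.12. The plot of the arrays at these genes shows the contrast with Selenbp1.

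**Figure D2:**
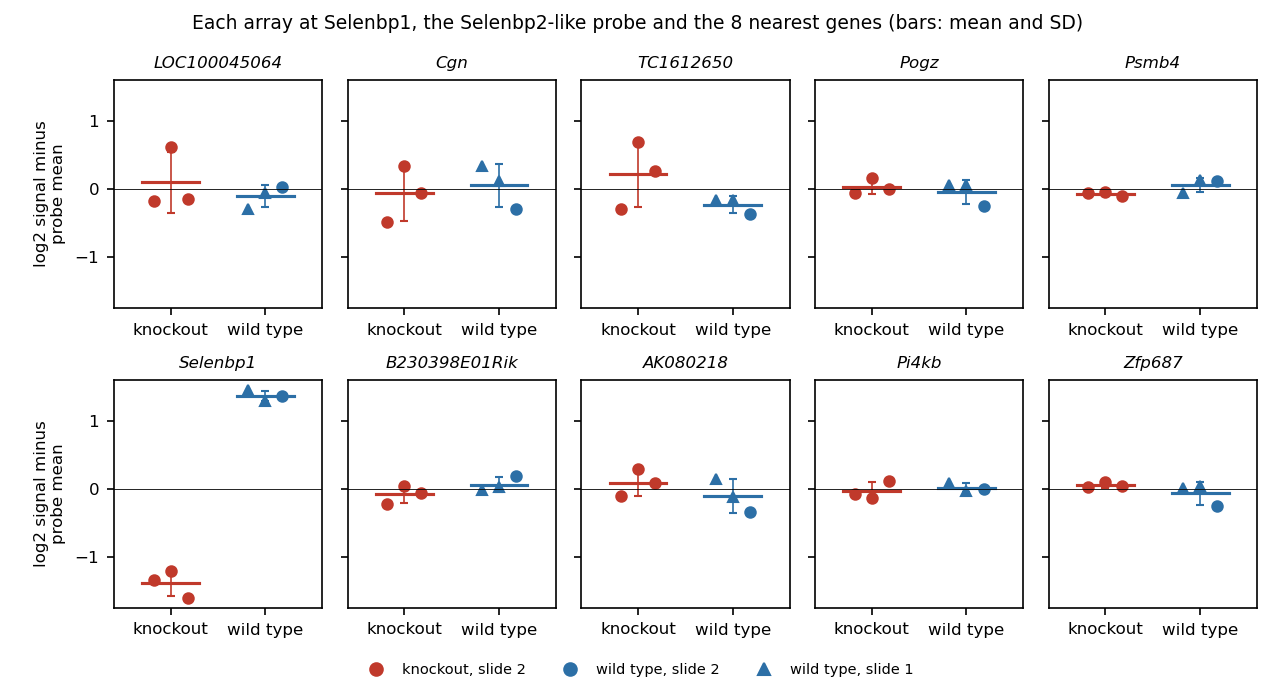
Signal of each array (log2, minus the mean of that probe over the 6 arrays) for LOC100045064, the 4 nearest tested genes on either side and Selenbp1, knockouts left and wild types right, triangles for slide 1, bars for mean and SD. Among these 10, the groups do not overlap only at Selenbp1.

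Rfx5, an activator of MHC class II genes, follows Selenbp1 in the RefSeq order but could not be compared. Its probes were well above background on at most 1 array of each genotype. The probe of the clone A730011C13Rik was well above background on 2 arrays of each genotype and was not tested either.

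On 4 neighbouring probes all arrays of one genotype lay beyond all arrays of the other. This is 4.82% of the 83 with a value on every array, against 8.66% over the array. All knockouts were higher at 1 of them, or 1.20%, against 3.97% over the array, and lower at 3, or 3.61%, against 4.69%. Gm4363 was the only one of them with all knockouts higher. It measured -4.66, -4.49 and -3.75 in the knockouts, against -5.50, -5.30 and -4.77 in the wild types. The lowest knockout was just above the highest wild type, which was replicate 3. The difference was 0.89 with an SE of 0.30 and an unadjusted limma p of 0.0224, but its limma adjusted p was 0.9999. Within slide 2 the difference was 0.47, and with normexp background correction it was 0.39.

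Tmod4 encodes a tropomodulin that caps actin filaments in muscle, and its probe lies at chr3:94933056-94933115, 184.4 kb after Selenbp1. It had -3.37, -3.50 and -3.43 in the knockouts, against -3.10, -3.19 and -3.19 in the wild types. Both genotypes were narrow and did not overlap. The difference of -0.27 had an SE of 0.10, an unadjusted limma p of 0.0296 and a limma adjusted p of 0.9999. Within slide 2 it was -0.24.

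The other probes without overlap were those of LOC100048713 and of Aph1a, both with the knockouts lower. LOC100048713 is a predicted transcript similar to a coiled-coil protein. It had 4.70, 4.61 and 4.72 in the knockouts, against 4.78, 4.79 and 5.24 in the wild types, a difference of -0.26 with an SE of 0.15. Wild type replicate 3 stood above all other arrays there. Aph1a, a subunit of gamma-secretase, had -2.42, -2.07 and -2.13 in the knockouts at one probe, against -1.96, -1.85 and -1.94 in the wild types, a difference of -0.29 with an SE of 0.13. Its other probe overlapped between genotypes and differed by -0.03.

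C2cd4d, a protein with a C2 domain, depended on a single wild type. It measured -5.53, -5.44 and -5.56 in the knockouts, against -3.95, -3.96 and -6.29 in the wild types. Wild type replicates 1 and 2, both on slide 1, were above all knockouts, and replicate 3, on the slide of the knockouts, was below them and not well above background. The difference was -0.78 with a limma adjusted p of 0.9999 over all arrays. Without wild type replicate 3 it was -1.56 with a limma adjusted p of 0.0286, and within slide 2 it was 0.78, with the knockouts higher. Slide and the division among the wild types cannot be told apart here, nor can slide and genotype once wild type replicate 3 is left out.

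Tdrkh, a Tudor domain protein of the piRNA pathway in germ cells, measured -5.57, -5.33 and -4.13 in the knockouts, against -5.80, -5.49 and -5.97 in the wild types. Knockout replicate 3 alone was clearly higher, and the difference of 0.74 had an SE of 0.38. Without that array it was 0.30, within slide 2 it was 0.96, and leaving out other single arrays gave up to 1.02. Its probe passed the filter only through the knockout arrays. Ciart, a repressor in the circadian clock, also had knockout replicate 3 as its highest array, at -2.91. The other knockouts, at -4.32 and -4.37, lay among the wild types, at -3.92, -4.45 and -4.71, and the difference of 0.49 had an SE of 0.43. Leaving out knockout replicate 3 gave 0.02, against 0.75 without knockout replicate 2 and 0.32 without wild type replicate 3. Within slide 2 the difference was 0.85.

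The matrix genes Adamtsl4 and Ecm1, both of which encode secreted glycoproteins, followed the same arrays. Adamtsl4 had -2.77, -3.89 and -3.30 in the knockouts, against -3.17, -3.05 and -1.93 in the wild types. Ecm1 had 3.81, 2.42 and 3.50 at its brighter probe in the knockouts, against 3.78, 3.39 and 4.27 in the wild types. Knockout replicate 2 was the lowest array and wild type replicate 3 the highest for both genes. The differences of -0.61 with an SE of 0.41 at Adamtsl4 and -0.57 with an SE of 0.40 at Ecm1 did not pass the test. Without knockout replicate 2 they were -0.32 and -0.16, and without wild type replicate 3 they were -0.21 and -0.34. Without knockout replicate 1 they were larger, at -0.88 and -0.86. Within slide 2, where wild type replicate 3 is the only wild type, they were -1.39 and -1.02. The second Ecm1 probe differed by -0.64, by -0.18 without knockout replicate 2 and by -1.06 within slide 2. Car14, a membrane-bound carbonic anhydrase, had 3.09, 3.03 and 3.96 in the knockouts, against 3.00, 3.13 and 2.57 in the wild types, with a difference of 0.46 and an SE of 0.29. Knockout replicate 3 was its highest array and wild type replicate 3 its lowest, and leaving them out in turn gave 0.16 and 0.29. Without knockout replicates 1 and 2 in turn the difference was 0.59 and 0.62, and within slide 2 it was 0.79.

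**Figure D3:**
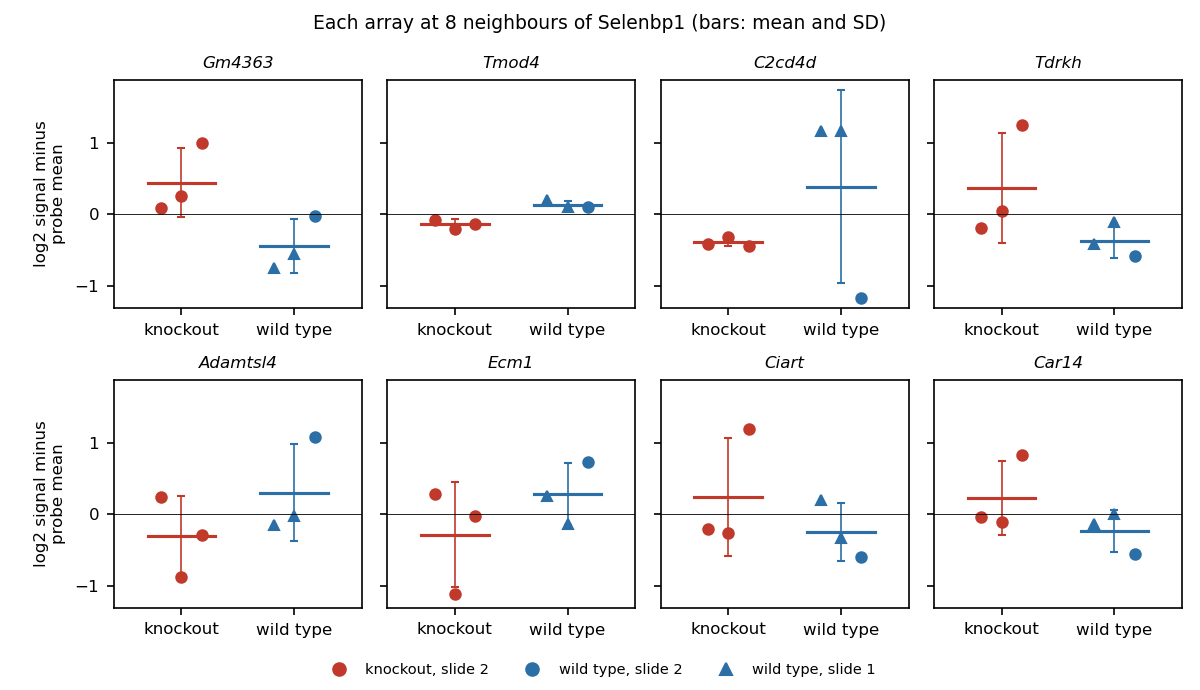
Signal of each array (log2, minus the mean of that probe over the 6 arrays) at 8 neighbours of Selenbp1, knockouts left and wild types right, triangles for slide 1, bars for mean and SD. The genotypes do not overlap at Gm4363 and Tmod4, whereas at C2cd4d the wild types of slide 1 and slide 2 lie on opposite sides of the knockouts.

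Grouped by function, with the brightest probe of a gene standing for it, no group of neighbours held a called gene. Median differences of the groups are given beside a median of -0.02 over all probes tested. With slide as a block that median over all probes was 0.03. The proteasome, splicing and RNA group had 6 measured genes, 5 of them with a lower knockout mean, and a median of -0.09. A slide block left 3 of the 6 lower. Its lowest member was Celf3, a splicing regulator, at -0.22, and its highest was Rprd2, which interacts with RNA polymerase, at 0.26. Psmd4, a ubiquitin receptor of the proteasome, differed by -0.03 and Scnm1, a splicing factor, by -0.07.

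The mitochondrial translation group, Mrpl9, Mrps21 and Tars2, had a median of -0.10. Mrpl9, a protein of the large mitochondrial ribosomal subunit, measured 1.25, 1.20 and 1.06 in the knockouts, against 1.27, 1.38 and 1.24 in the wild types. The groups overlapped narrowly, and the difference was -0.12 with an SE of 0.11. Mrps21 differed by 0.01, and both probes of Tars2, a mitochondrial threonyl-tRNA synthetase, by -0.10 and -0.11.

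Chromatin and transcription factors had 9 measured genes, 4 with a lower and 5 with a higher knockout mean, and a median of 0.06. Setdb1, a histone H3 methyltransferase, differed by -0.04, and Arnt, the partner of the aryl hydrocarbon receptor, by 0.06 at its brighter probe. Vps72, a subunit of complexes that exchange histone variants, differed by 0.10. Ciart, described above, was the member farthest from 0.

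The junction and cytoskeleton genes had a lower knockout mean at 5 of 5, with a median of -0.12. They are Tuft1, Cgn, Tmod4, Cdc42se1 and Anxa9, and Anxa9, an annexin, was lowest at -0.30 with an SE of 0.25. The 4 measured genes of phosphoinositides and trafficking, Snx27, Pi4kb, Pip5k1a and Golph3l, also had a lower knockout mean each, between -0.11 and -0.05. Snx27, a sorting nexin that returns receptors from endosomes, differed by -0.11 at both of its probes. With slide as a block, and so with wild type replicate 3 as the only comparison, 3 of the 5 junction genes had a higher knockout mean. Cgn was higher by 0.23, Tuft1 by 0.10 and Anxa9 by 0.03, so the common direction of the junction genes did not hold there. Over all probes tested the median was 0.03 with that block. Golph3l, a Golgi protein, was likewise higher by 0.27 with that block, and the other 3 trafficking genes remained lower. Markers of surface epithelium and mesothelium had a lower knockout mean at 5 of 5, with a median of -0.54, and their mean ran from 0.06 to 0.76 in the knockouts and from 0.72 to 1.51 in the wild types. Markers of oviduct and ciliated cells were lower at the 4 of 5 that were tested, with a median of -1.23, and their mean ran from -3.84 to -2.14 in the knockouts and from -2.65 to 0.15 in the wild types. A lower knockout mean was not particular to these sets. It was found at 8 of 8 oocyte, 4 of 5 corpus luteum and 3 of 4 tested theca markers, with medians of -0.24, -0.64 and -0.61. Granulosa markers were higher at 5 of 6 and tested red cell markers at 3 of 3. None of these markers was called, and their part in the junction values was not tested.

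The cathepsins Ctsk and Ctss, lysosomal proteases, had a higher knockout mean, in contrast to the matrix genes of the same list. Ctsk measured 0.66, 0.51 and 0.77 in the knockouts, against 0.60, 0.55 and 0.04 in the wild types. Wild type replicate 3 was lowest, the others overlapped, and the difference was 0.25 with an SE of 0.18. Ctss, which is abundant in macrophages, had 3.02, 2.03 and 2.93 in the knockouts, against 2.84, 2.45 and 2.18 in the wild types, and differed by 0.17 with an SE of 0.31. The mean of 8 macrophage and myeloid markers ran from -0.91 to -0.22 in the knockouts and from -0.75 to -0.57 in the wild types, 6 of them with a higher and 2 with a lower knockout mean. Their part in the cathepsin values was not tested.

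Mcl1, which protects cells from apoptosis, measured 3.64, 3.30 and 3.51 at its brighter probe in the knockouts, against 3.47, 3.53 and 3.64 in the wild types. The arrays overlapped throughout, and the differences were -0.06 and -0.10 at its probes. In its group of 3 measured genes of survival and apoptosis, the knockout mean was lower at 2. Cers2, a ceramide synthase for very long acyl chains, differed by -0.15 with an SE of 0.20, and Them4, a mitochondrial thioesterase, by -0.02. Ensa, which inhibits a phosphatase at entry into mitosis, differed by -0.07 at its brighter probe. Among the signalling and membrane enzymes, 4 of 6 measured genes had a lower knockout mean, and the median was -0.05. Of 8 listed germline and meiosis genes, 4 had a probe in the window and only Tdrkh was measured. None of the 9 listed epidermal and S100 genes had a probe in the window.

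**Figure D4:**
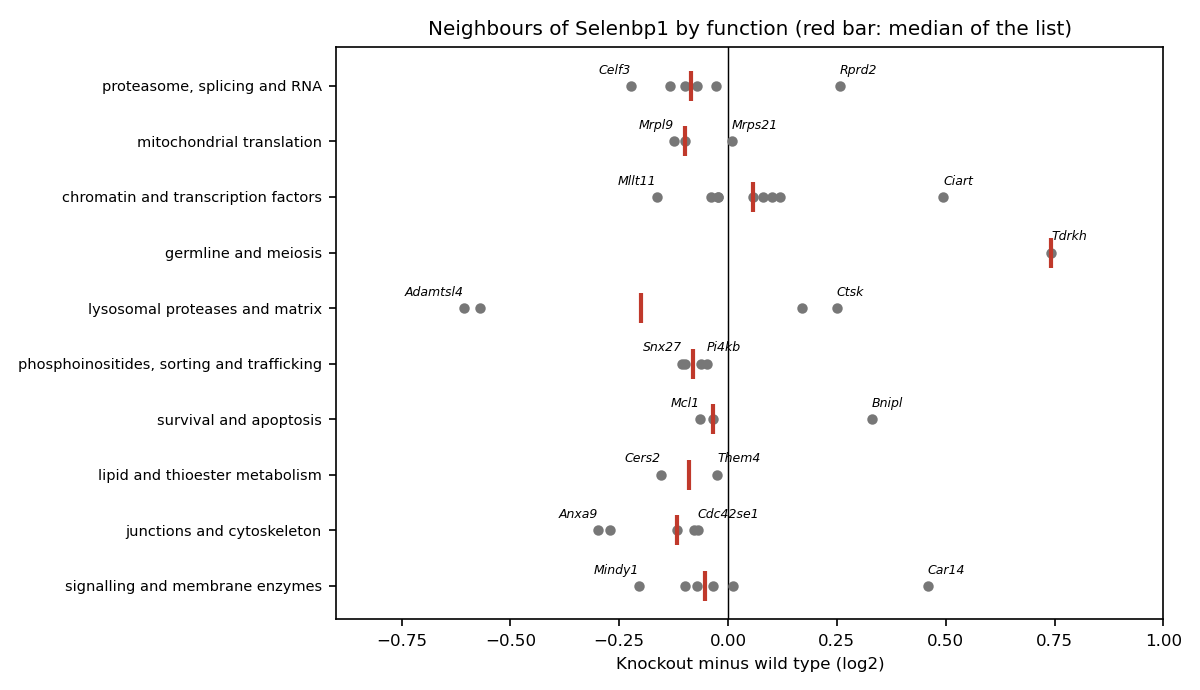
Difference between knockout and wild type (log2, horizontal axis) of each measured neighbour, by functional group (rows); grey points are genes, red bars group medians, and the lowest and highest genes are named. All group medians except that of Tdrkh, alone in its row, lie between -0.20 and 0.06.

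A lower knockout mean was more common among the neighbours than a higher one, by small amounts. It was lower at 58 of the 84 neighbouring probes, or 69.0%, against 54.3% of all probes tested. The median difference was -0.06, against -0.02 over all probes tested. Medians over the neighbours of each array's deviation from the probe mean were -0.10, -0.03 and 0.02 in knockout replicates 1, 2 and 3, against 0.02, 0.00 and -0.02 in wild type replicates 1, 2 and 3. Knockout replicate 3 was thus level with the highest wild type. Knockout replicate 1 was the lowest of the 6 arrays at 26 of 83 neighbouring probes, knockout replicate 2 at 23 and wild type replicate 3 at 19. Each of the other arrays was lowest at 7 or fewer. With slide as a block 42 probes had a lower and 42 a higher knockout mean, and the median was -0.01. The median over all probes tested was 0.03 with that block, so that of the neighbours still lay below it. That block sets the knockouts against wild type replicate 3 only. Leaving out knockout replicates 1, 2 and 3 in turn gave medians of -0.02, -0.05 and -0.06, against -0.007, -0.026 and -0.016 over all probes. Leaving out wild type replicates 1, 2 and 3 in turn gave -0.03, -0.06 and -0.04, against -0.010, -0.003 and -0.026 over all probes. The knockout mean was lower at 47 probes without knockout replicate 1 and at 46 without knockout replicate 2.

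Medians close to Selenbp1 were small and of both signs. Within 0.1 Mb the medians were 0.04 over 4 probes before it and -0.04 over 6 probes after it. Between 0.25 and 0.5 Mb before it, all 9 probes had a lower knockout mean, between -0.26 and -0.07, and none passed an unadjusted p under 0.05. With slide as a block 3 of these 9 had a higher knockout mean. Between 0.1 and 0.25 Mb after it, 12 of 14 had a lower knockout mean, with a median of -0.07, and Tmod4 was the only one of them under that unadjusted p. With slide as a block 8 of these 14 were lower, and the median over all probes tested was 0.03. Farther out, between 1 and 10 Mb on either side, 353 probes had a median of -0.01 and 3.68% were under an unadjusted p of 0.05. On the rest of chromosome 3 the 1100 tested probes had a median of -0.02, and 4.18% were under that p.

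At the edges of the window, Tdpoz7 was the first tested probe inside, with a difference of 0.15, and Anp32e the last, with a difference of -0.05. Just outside, a second probe of Anp32e, 1001.6 kb away, differed by -0.02. The nearest tested probe outside on the other side was that of S100a10, an annexin partner, which differed by -0.34 with an SE of 0.25.

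**Figure D5:**
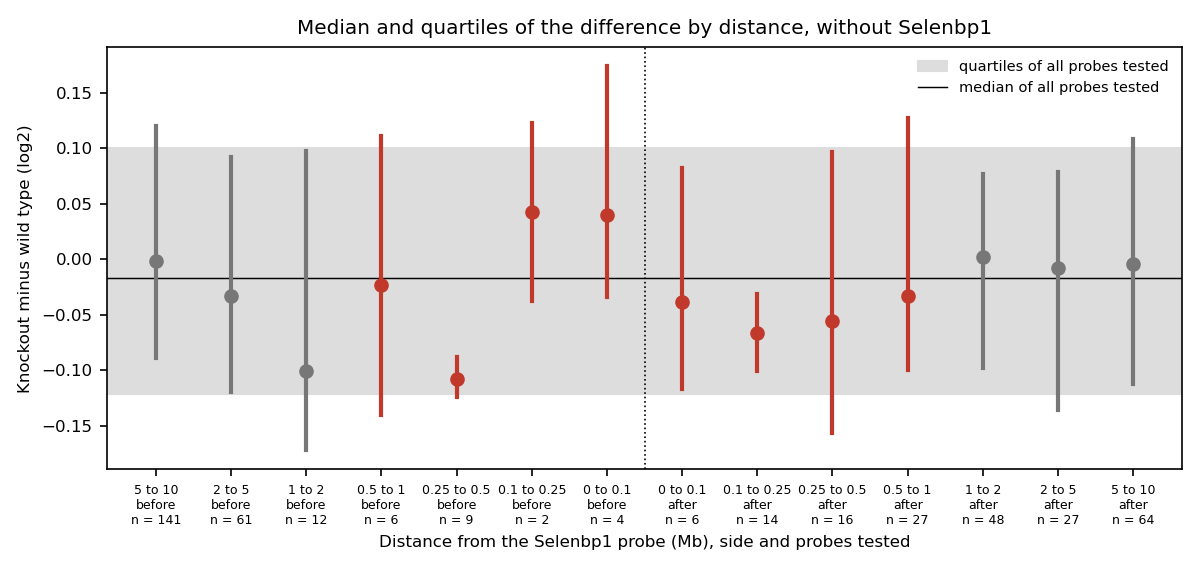
Median (points) and quartiles (lines) of the difference between knockout and wild type (log2, vertical axis) in bins of distance in Mb before and after the Selenbp1 probe, which is left out; red bins lie within 1 Mb, and the grey band spans the quartiles of all probes tested. All medians lie between -0.11 and 0.04, inside the band.

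LOC676017 and ENSMUST00000036360, whose probes share bases with those of other genes, did not pass the test. LOC676017 had 7.21, 7.37 and 7.15 in the knockouts, against 7.19, 7.36 and 7.45 in the wild types, and differed by -0.09. ENSMUST00000036360 had 6.72, 6.92 and 6.72 in the knockouts, against 6.47 and 6.57 in wild type replicates 1 and 3. Its spot was marked as an outlier in wild type replicate 2, so that its difference of 0.27, with an SE of 0.13, was fitted without that array. BC028528, which lies beside it, differed by -0.03.

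For 14 genes more than 1 probe was tested, and their probes differed from one another by at most 0.37. Probes of Pogz, Pip5k1a, Cdc42se1, Bnipl, Arnt and Ensa disagreed in sign. The widest gap was at Bnipl, a protein related to apoptosis regulators, with -0.04 and 0.33. Both were dim, and the highest value of the second was that of knockout replicate 3, at -4.25. Pip5k1a, which makes the lipid that anchors many membrane proteins, had differences of 0.07, -0.12 and -0.06 at its 3 probes.

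The remaining 25 probes of the window were not tested. On 19 of them no array was well above background. Among these are both probes of Hormad1, a protein of the meiotic chromosome axis, both probes of Tdpoz9 and of Spopfm2, and Oaz3, an antizyme of the testis. Them5, a relative of Them4, was among them as well. On the other 6 probes, those of LOC675962, Lingo4, Riiad1, Rfx5 and A730011C13Rik, some arrays were well above background in no full genotype. No loss or gain of signal can be read from these probes.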

How the data were processed

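The deposited scanner files hold spot intensity from Agilent Feature Extraction 10.7.1.1, background-subtracted within each array, per the file headers, with probe positions on mm9. The deposited series table holds intensity made by the authors in a way not given in the sources used here, and served as an alternative. Outlier-flagged and control spots were left out and spots of a probe averaged. No spot was saturated, and the number of arrays limits the precision. Values are log2 intensity minus the 75th percentile of each array. Samples were grouped by the labelled genotype. A two-sided moderated test in limma 3.58.1 (lmFit, eBayes, under R 4.3.3) compared genotypes over 24415 probes, with Benjamini-Hochberg adjustment and a threshold of 0.05. The fit was tested on simulated data. Plots were drawn with matplotlib 3.10.9 and tables made with pandas 2.3.3 and numpy 2.4.6 under Python 3.11.15. In the window 79 probes were named by accession, 10 by symbol and 21 by the name in the file. Members, gene lists and alternatives were chosen with earlier results of these data known. Named were Selenbp1, the Selenbp2-like LOC100045064, neighbours with an unadjusted p under 0.05 and the 4 nearest genes on each side. Also named were the smallest p of each list, the edge probes and genes whose probes disagreed. C2cd4d, LOC676017, LOC100048713, Psmd4, Scnm1, Setdb1, Ctsk, Ctss, Mcl1, Ecm1, Tars2, Mrps21, ENSMUST00000036360, BC028528, Aph1a, Vps72, Celf3, Anxa9, Tuft1, Golph3l, other members printed by name in a group and genes not tested were named after their values were seen. The 17 alternatives cover background correction, scaling, the filter, slide, array weights, a replicate block and each array left out.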

Additional observations from a re-analysis of the deposited data

How the results depend on the processing

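Selenbp1 was lower in the knockout under all 17 alternatives, between -2.84 and -2.64, but its limma adjusted p exceeded 0.05 without a filter on background (-2.75, 0.0824), with a replicate block (-2.75, 0.557), on slide 2 only (-2.74, 0.347) and with a slide block (-2.74, 0.0792). The first range holds with single arrays left out as well. Under the 4 alternatives named, 0 probes were called in the window and 0 over the array. With array weights 6 were called over the array. Leaving out single arrays gave 0 to 19 called over the array, 0 to 2 in the window and 0 to 1 without Selenbp1. The counts were 0 without knockout replicates 1 or 3 or wild type replicates 1 or 2, and highest without wild type replicate 3, where C2cd4d was the neighbour called. With that array left out, all wild types lie on slide 1 and all knockouts on slide 2, so genotype and slide cannot be told apart. The difference at LOC100045064 lay between -0.055 and 0.34 with single arrays left out.

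Neighbours with an unadjusted p under 0.05 numbered 0 with normexp background correction (against 3.41% of all probes), 5 with quantile normalization (5.95% against 5.0%), 1 with the replicate block (1.19% against 4.19%), 5 on slide 2 only (5.95% against 6.57%), 5 with the slide block (5.95% against 9.78%), 11 with array weights (13.1% against 15.4%), and 0 to 5 with single arrays left out. They were 5 without knockout replicate 1 (5.95% against 4.44%), 3 without knockout replicate 2 (3.57% against 5.80%) or wild type replicate 3 (against 6.42%), and 0 without knockout replicate 3 (against 3.10%) or wild type replicates 1 (2.94%) or 2 (2.53%). The median over the neighbours was -0.0052 on slide 2 only and with the slide block, against 0.031 over all probes.

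Several differences, none of them called, changed sign. With array weights they were Pogz -0.029, Vps72 -0.0097, Arnt 0.0067, Tuft1 0.0073 and 0.025, Pi4kb 0.037, BC028528 0.039, Cers2 0.074, Cdc42se1 0.13 at 2 probes and Pip5k1a 0.23. On slide 2 only, and equally with the slide block, they were Cdc42se1 -0.019, Mrps21 -0.025, Pip5k1a -0.22, Aph1a 0.00725, Anxa9 0.034, Psmd4 0.046, Tuft1 0.10 and 0.20, Setdb1 0.12, Cgn 0.23, Pogz 0.24, Golph3l 0.27 and C2cd4d 0.78. Pogz was 0.053 with slide as a random block and 0.0024 in the deposited table, where Psmd4 was 0.0074. Mrps21 was -0.0034 with median scaling and -0.10 with quantile normalization, and BC028528 was 0.015 with normexp. The cause was not tested.

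With single arrays left out, ranges that crossed 0 were -0.098 to 0.025 (Aph1a), -0.12 to 0.14 (Arnt), -0.20 to 0.13 (BC028528), -0.19 to 0.12 and -0.052 to 0.64 (Bnipl), -0.22 to 0.16, -0.23 to 0.054 and -0.026 to 0.25 (Cdc42se1), -0.42 to 0.11 (Celf3), -0.25 to 0.037 (Cers2), -0.32 to 0.090 (Cgn), -0.013 to 0.49 (Ctss), -0.029 to 0.11 (Ensa), -0.29 to 0.0069 (Golph3l), -0.14 to 0.027 and -0.27 to 0.0095 (Mcl1), -0.084 to 0.11 (Mrps21), -0.12 to 0.0013 (Pi4kb), -0.081 to 0.22, -0.21 to 0.089 and -0.32 to 0.0039 (Pip5k1a), -0.022 to 0.13 and -0.12 to 0.078 (Pogz), -0.066 to 0.0063 (Psmd4), -0.12 to 0.0092 (Setdb1) and -0.22 to 0.046 and -0.22 to 0.084 (Tuft1). Ecm1 was -0.087 at its brighter probe with array weights, against -1.02 on slide 2 only.

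The replicate numbers were taken from the description in the labels. Deviations of arrays with the same number correlated at -0.33, 0.30 and -0.03, and those with different numbers between -0.30 and 0.36. Deviations from a mean of 3 arrays are tied to one another, so these values cannot tell whether the numbers pair the samples. The titles carry other numbers, of which the genotypes share only 1, that of knockout replicate 2 and wild type replicate 1 (correlation 0.14), so no block by title could be fitted. The slide block rests its genotype difference on a single wild type. Dim probes such as those of C2cd4d and Tdrkh lie near background, which limits their differences.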
